A study of Gallus gallus with 4 samples.

Results

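The genes described are those of the cytosolic ribosomal proteins of the chicken, measured in granulosa cells, the somatic cells that form a layer around the oocyte in a follicle of the ovary. They were taken by gene name, as every row named RPL or RPS with digits and an optional end letter, or RPSA, RPLP0, RPLP1 or RPLP2, without the RPS6K kinases and without the mitochondrial ribosomal proteins. Of 19309 rows with a gene, 67 matched, and 65 had a mean of at least 1 FPKM (fragments relative to the length of the gene and the total reads of the library) over the libraries. These 65, of which 40 have large subunit (RPL) names and 25 small subunit (RPS) names, are among 11203 genes that passed the same minimum. The subunit was taken from the name alone, so a place in the finished ribosome was not checked for each member. RPL34 (mean 0.691 FPKM) and RPL3L (0.114 FPKM), the paralog of RPL3 that mammals express in striated muscle, did not reach the minimum, while the lowest members kept, RPL22L1 and RPL7L1, had 71.3 and 75.3 FPKM. RPL11, RPS19 and RPS27A were not analysed here.

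The proximal cells lay near the germinal disc, the cytoplasmic patch at the oocyte surface that holds its nucleus, and the distal cells lay farther off. Both came from F1 and F5 follicles of hens aged 10 to 15 months. F1 is the follicle nearest to ovulation in the laying hierarchy, and F5 is an earlier one. There were 4 libraries of poly-A selected RNA, namely F1 proximal, F1 distal, F5 proximal and F5 distal, so each group was 1 library and its values have no replicate. Neither the strain nor the number of hens and follicles behind a library is given in the sources used here.

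A ribosome reads an mRNA on its small subunit and joins amino acids on its large subunit, and each subunit holds ribosomal RNA and a fixed set of proteins in about equal amounts. In vertebrates the mRNAs of these proteins start with a run of pyrimidines, through which mTOR signalling controls their translation together, so the level of the mRNA need not give the output of protein. As a follicle of the hen nears ovulation its granulosa cells divide less, turn to progesterone synthesis and make large amounts of the egg coat protein ZP3.

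The totals that scale the FPKM values were 18020270 reads in F1 proximal, 13948790 in F1 distal, 16654793 in F5 proximal and 17351242 in F5 distal cells. ZP3 took 11.4% of reads in the F1 proximal library and 15.4% in the F1 distal one, against 1.98% in F5 proximal and 2.04% in F5 distal, so the FPKM of all other genes share what is left. All 10 granulosa markers on a list that holds FOXL2, FSHR and STAR passed the minimum of 1 FPKM, which goes with the labelled cell type. Over all 11203 genes the median difference of log2(FPKM + 1) was 0.20 for F1 proximal minus F1 distal, 0.07 for F5 proximal minus F5 distal, -0.27 for F1 proximal minus F5 proximal and -0.40 for F1 distal minus F5 distal. Median-ratio scaling, which sets the middle gene to no difference, brought these medians to between -0.04 and 0.00, and each summary below is therefore also given relative to the median of all genes. In these bulk samples a lower share of a cell type and less RNA per cell cannot be told apart.

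Ribosomal protein genes were among the most abundant in all 4 libraries. Every one of the 65 had a mean above the all-gene median of 11.1 FPKM, and their means spanned 71.3 to 1943 FPKM with a median of 572 FPKM. Their summed share of reads was 3.08% in F1 proximal cells (95% exact Clopper-Pearson interval 3.07 to 3.09), 3.41% in F1 distal cells (3.40 to 3.42), 2.27% in F5 proximal cells (2.26 to 2.27) and 2.91% in F5 distal cells (2.90 to 2.92). F1 distal cells thus gave the most reads to these genes and F5 proximal cells the fewest. The share in F1 proximal cells was 0.903 times that in F1 distal cells (0.899 to 0.906), and the share in F5 proximal cells was 0.779 times that in F5 distal cells (0.776 to 0.783). Between follicles it was 1.36 times as high in F1 as in F5 for proximal cells (1.35 to 1.36) and 1.17 times for distal cells (1.17 to 1.18). With the ZP3 reads taken out of the totals, the same order of libraries held, at 3.47% in F1 proximal, 4.03% in F1 distal, 2.31% in F5 proximal and 2.97% in F5 distal cells. Intervals of this kind cover counting error alone. Variation among hens, follicles or dissections is outside them. Reads were recovered from the FPKM and may be too low for some genes.

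**Figure D1:**
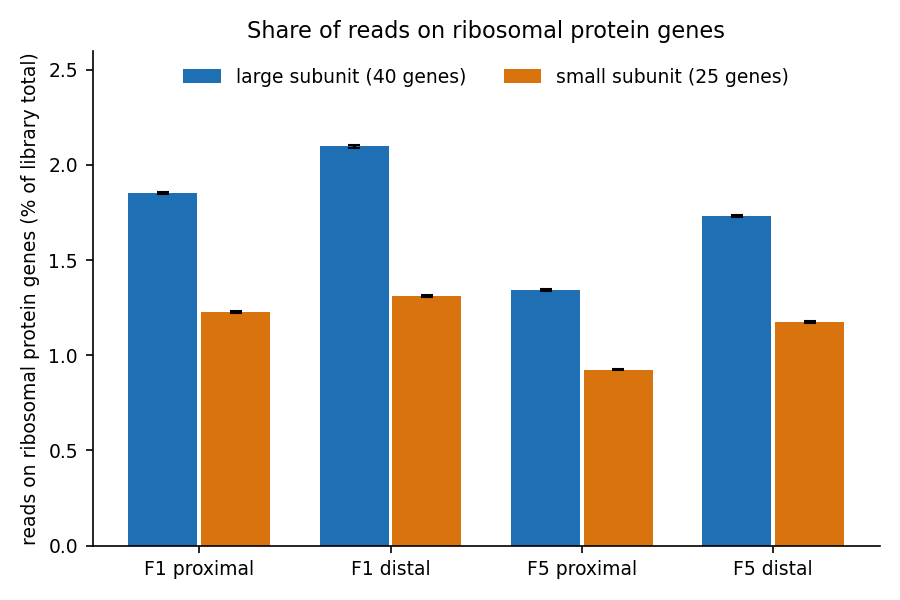
Share of reads on the 40 large subunit and 25 small subunit genes, as percent of each library's total, with 95% exact binomial intervals that cover counting error alone. In both subunits the bars are tallest in F1 distal cells (2.10% and 1.31%) and lowest in F5 proximal cells (1.34% and 0.925%).

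The mRNA levels of these proteins differed widely, although the ribosome holds most of them in equal number. The median member stood at 595 FPKM in F1 proximal, 648 in F1 distal, 462 in F5 proximal and 597 in F5 distal cells. Only 8 members had a mean over 1000 FPKM and 5 had a mean under 200 FPKM. The low group holds the paralogs RPL22L1 and RPL7L1, together with RPS16, RPL21 and RPS21. RPS16 (ENSGALG00000026490) and RPL21 (ENSGALG00000027035) were the members with the longest gene lengths behind their FPKM, 3272 and 2889 bases, against a median of 727 bases. Across the 65 members, mean FPKM and that length had a Spearman correlation of -0.453, and mean reads and length one of 0.364, while no difference between libraries had a correlation with length beyond -0.133. These lengths enter the FPKM themselves, so the correlations are given as a description. The members lay on 25 chromosomes, with 2 more (RPL10L and RPS26) on unplaced scaffolds.

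The acidic stalk proteins stood at the top. RPLP0 (ENSGALG00000023294, chromosome 15, 9437097 to 9439456), the base of the stalk that recruits elongation factors to the large subunit, had 2159 FPKM in F1 proximal, 2754 in F1 distal, 1276 in F5 proximal and 1583 in F5 distal cells. RPLP1 (ENSGALG00000016172, chromosome 2, 145289505 to 145290656), which binds RPLP0 as a dimer with RPLP2, had 2074, 2124, 1419 and 1717 FPKM in the same order of libraries. These were the highest of all members in every library, with RPLP0 above RPLP1 in both F1 libraries and below it in both F5 libraries. The ratio of RPLP0 to RPLP1 was 1.04 in F1 proximal cells and 1.30 in F1 distal cells, against 0.899 in F5 proximal and 0.922 in F5 distal cells. RPLP2 (ENSGALG00000014309, chromosome 5, 15140981 to 15147610) lay far lower, at 329, 389.8, 262 and 304 FPKM in F1 proximal, F1 distal, F5 proximal and F5 distal cells, with an FPKM length of 1419 bases against 460 bases for RPLP1. After the stalk came RPL37A (1454, 1627, 1124 and 1514 FPKM), RPL10L (1477, 1473, 1118 and 1463 FPKM) and RPS17L (1356, 1455, 928 and 1134 FPKM), the last being the highest of the small subunit. All of these members had their lowest value in F5 proximal cells.

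**Figure D2:**
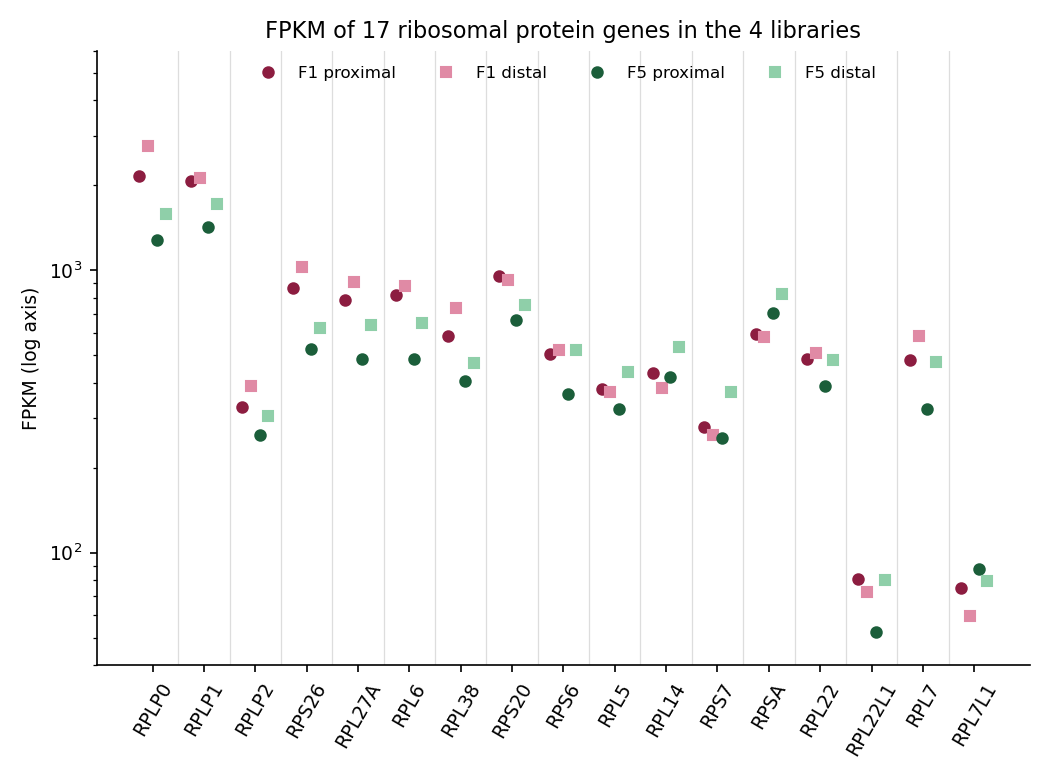
FPKM of selected ribosomal protein genes on a log axis, with 1 point per library (circles proximal, squares distal, red F1, green F5). RPLP0 runs from 1276 FPKM in F5 proximal to 2754 FPKM in F1 distal cells, while RPSA has its highest value, 828 FPKM, in F5 distal cells and RPL7L1 its highest, 87.5 FPKM, in F5 proximal cells.

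The first question was that of position relative to the germinal disc. In F1 follicles 53 of 65 members lay lower in proximal than in distal cells and 12 higher, where 22.4% of all genes lay lower and 77.5% higher, and the median difference was -0.12 on the log2 scale, or -0.32 relative to the median of all genes. In F5 follicles 64 of 65 lay lower in proximal cells and 1 higher, where 36.9% of all genes lay lower and 63.0% higher, with a median of -0.36, or -0.43 relative to all genes. The differences were small for each gene, and 0 members reached 2-fold in either follicle, where that difference was reached by 5.18% of all genes upwards and 0.303% downwards in F1 proximal cells, and by 2.18% and 0.321% in F5 proximal cells. The median fold of a member, proximal over distal, was 0.918 in F1 and 0.779 in F5. The members also lay close together, with a standard deviation over members of 0.13 in F1 and 0.12 in F5 on the log2 scale, against 0.47 and 0.35 over all genes.

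RPS13 (ENSGALG00000006096, chromosome 5, 11136190 to 11139937), a small subunit protein, lay lowest of all members in the F1 comparison. It had 485 FPKM in F1 proximal and 622 FPKM in F1 distal cells, and 419 FPKM in F5 proximal and 589 FPKM in F5 distal cells. Both proximal values thus lay below both distal ones, and RPS13 was 1.28-fold lower in proximal cells of F1 (1.23 to 1.34) and 1.40-fold lower in F5 (1.35 to 1.46). RPL4 (ENSGALG00000007711, chromosome 10, 18000215 to 18005535), which lines the tunnel through which the new protein leaves, had 875 and 1091 FPKM in F1 proximal and F1 distal cells and 667 and 951 FPKM in F5 proximal and F5 distal cells. It was 1.25-fold lower in proximal cells of F1 (1.22 to 1.27) and 1.43-fold lower in F5 (1.40 to 1.45), with no overlap of the positions on the FPKM scale. RPLP0 was 1.28-fold lower in F1 (1.26 to 1.29) and 1.24-fold lower in F5 (1.22 to 1.26), although its F1 proximal value lay above its F5 distal one. RPL38 (ENSGALG00000001465, chromosome 18, 9380149 to 9382662), which in the mouse is needed for the translation of certain Hox mRNAs, was 1.25-fold lower in F1 (1.20 to 1.31) and 1.15-fold lower in F5 (1.09 to 1.22).

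On the FPKM scale both proximal libraries lay below both distal ones in 17 of 65 members, where 3.02% of all genes showed this. In 0 members both lay above, where 14.8% of all genes did. The pattern also sets F1 proximal against F5 distal cells, so it depends on the scaling. Besides RPS13 and RPL4 the 17 hold RPS3, RPS6, RPS15, RPS2, RPL7A, RPL37A and RPL21, among others. Median-ratio scaling divides F1 proximal values by 0.968 and F5 distal values by 1.11. Under that scaling RPS13 keeps the pattern, while RPL4 and the other members just named lose it. RPS7, RPL14, RPSA and RPL5 then gain it. The members with the pattern were not counted under that scaling. RPS6 (ENSGALG00000015082, chromosome Z, 33595465 to 33600075), the substrate of the S6 kinases below mTOR, had 507 FPKM in F1 proximal and 522 FPKM in F1 distal cells, which overlap within counting error, and 365 FPKM in F5 proximal against 522 FPKM in F5 distal cells, 1.43-fold lower (1.38 to 1.48). RPS3 (ENSGALG00000017330, chromosome 1, 194298571 to 194305896), which lies where the mRNA enters, had 499.5 and 537 FPKM in F1 proximal and F1 distal cells and 385 and 517 FPKM in F5 proximal and F5 distal cells. In F5 the lowest of all was RPL22L1, 1.52-fold lower in proximal cells (1.35 to 1.71), followed by RPL7, 1.46-fold lower (1.41 to 1.52). In F1 the counting intervals of RPS6 and RPL22L1 held 1.

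**Figure D3:**
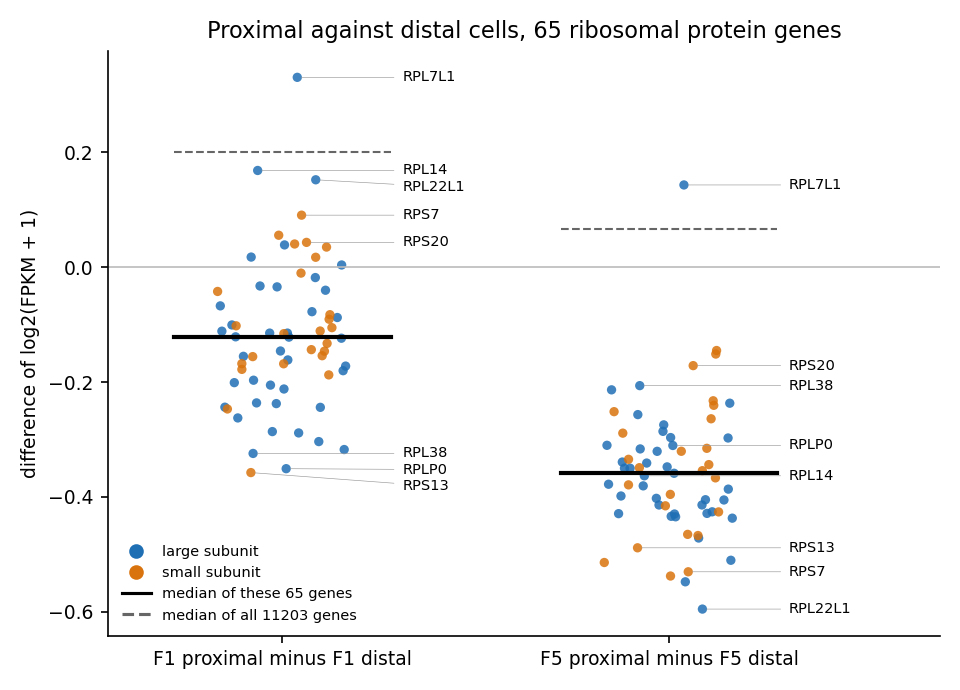
Difference of log2(FPKM + 1), proximal minus distal, for each of the 65 genes (points, blue large subunit, orange small subunit, jittered sideways), with the median of these genes (line) and of all 11203 genes (dashed). The cloud centres on -0.12 in F1 and on -0.36 in F5, below the dashed lines at 0.20 and 0.07, and RPL7L1 alone lies above 0 in both.

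The position difference was lower in F5 than in F1 for 62 of 65 members, and 53 members lay lower in proximal cells of both follicles. The shares of all genes with these patterns were not counted. The median of all genes was also lower in F5, at 0.07 against 0.20 in F1. Relative to those medians the members stood at -0.43 in F5 and -0.32 in F1. The larger gap in F5 was a feature of 1 pair of libraries and was not tested, since each follicle had 1 library at each position. In F1 the counting intervals lay below 1 for 47 members, above 1 for 4 (RPL7L1, RPL14, RPS7 and RPS3A) and held 1 for 14, whereas in F5 they lay below 1 for 64 and above 1 for RPL7L1. Under median-ratio scaling, with medians of -0.40 in F1 and -0.48 in F5, 11 of the 12 members above 0 in F1, RPL14, RPS7, RPS3A, RPL22L1, RPS20 and RPSA among them, turned to below 0. RPL7L1 stayed just above 0, at 0.06 in F1 and 0.03 in F5. A fit of position with follicle as a covariate, in limma on log2(FPKM + 1), called 0 of 65 members at a Benjamini-Hochberg adjusted p below 0.05, and 0.0% of all 11203 genes. At an unadjusted p below 0.05 it held 12 members, all lower in proximal cells, and 1535 genes in all. That count depends on the scaling. Under median-ratio scaling it was 62 members, all lower in proximal cells, and 1597 genes in all. Under a common FPKM sum it was 7 members, all lower, and 1654 genes in all. The fit with voom weights on recovered reads also called 0 members at the adjusted threshold. On the FPKM scale RPS13 had the smallest limma adjusted p of the members, 0.276, with an estimate of -0.42 (SE 0.0951), lower in proximal cells of both follicles. Each group was 1 library and the labels name no separate animals. The p-values here therefore do not measure the spread among animals or among libraries of a group. Their error rests on the interaction of position and follicle in these 4 libraries, which limma combines with that of other genes. That error may be technical.

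The second comparison asked how cells of the F1 follicle, shortly before ovulation, differ from cells of F5. In proximal cells 63 of 65 members lay higher in F1 and 2 lower, where 27.9% of all genes lay higher and 72.1% lower, with a median difference of 0.43 on the log2 scale, or 0.70 relative to all genes. In distal cells 53 of 65 lay higher in F1 and 12 lower (of which 9 turned to higher under median-ratio scaling), where 25.2% of all genes lay higher and 74.7% lower, with a median of 0.21, or 0.61 relative to all genes. On the FPKM scale the 65 genes thus lay on the other side of 0 from the middle of the transcriptome. Again 0 members reached 2-fold in either position, where 4.46% of all genes did so upwards and 9.85% downwards in F1 proximal cells, and 5.36% and 17.8% in F1 distal cells. The median fold, F1 over F5, was 1.35 in proximal and 1.15 in distal cells. Counting intervals lay above 1 for 62 members, below 1 for 2 and held 1 for 1 in proximal cells, and in distal cells they lay above 1 for 48, below 1 for 8 and held 1 for 9.

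Both F1 libraries lay above both F5 libraries in 39 members, where 17.4% of all genes showed this, and both lay below in 2, RPSA and RPL7L1, where 59.3% of all genes did; under median-ratio scaling RPL7L1 turned to above 0 at both positions and RPSA in proximal cells. F5 proximal cells had the lowest value in 62 members. The highest value was in F1 distal cells for 50 members, in F5 distal cells for 9, in F1 proximal cells for 5 and in F5 proximal cells for RPL7L1. The difference between follicles was larger in proximal than in distal cells for 62 members, the exceptions being RPLP0, RPL38 and RPLP2. This is the same arithmetic as the larger position gap in F5, since both rest on the same 4 values. The shares of all genes with these orders of libraries were not counted. The median of all genes was also higher for proximal cells, at -0.27 against -0.40 for distal cells. Relative to those medians the members stood at 0.70 in proximal and 0.61 in distal cells.

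**Figure D4:**
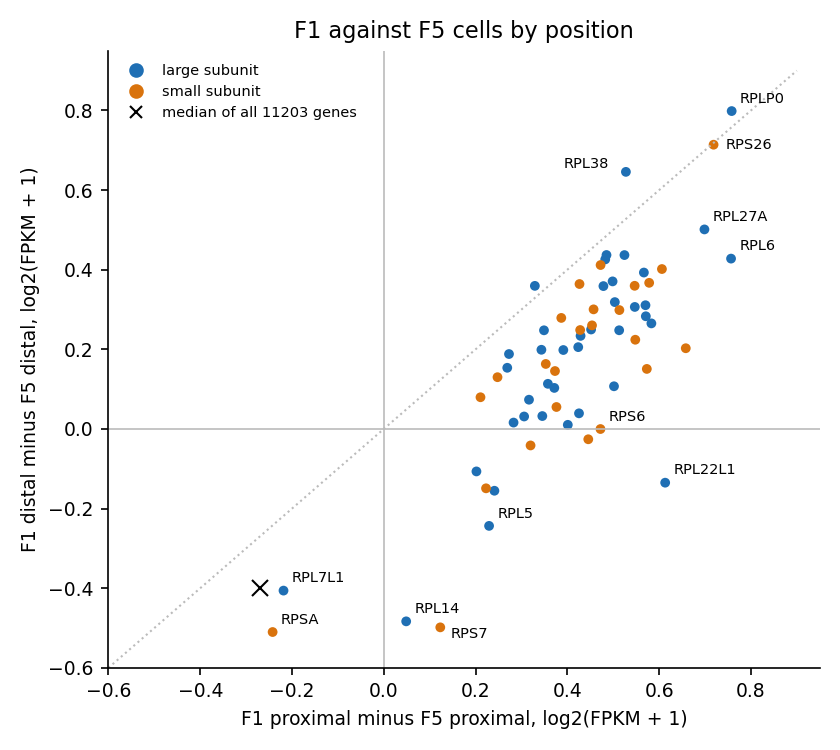
Difference of log2(FPKM + 1), F1 minus F5, in proximal cells (x axis) and distal cells (y axis) for each of the 65 genes, with the median of all 11203 genes as a cross at -0.27 and -0.40 and the diagonal dotted. Most genes lie right of 0 and above 0 but below the diagonal, and RPSA and RPL7L1 alone lie below 0 on both axes, which under median-ratio scaling none of the genes does.

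In the limma fit of follicle with position as a covariate, 24 of 65 members rose in F1 and 0 fell, at a Benjamini-Hochberg adjusted p below 0.05. Of all 11203 genes 10.4% rose and 35.8% fell in this fit, 46.2% in either direction. The 24 hold 15 of 40 large subunit and 9 of 25 small subunit genes, with estimates from 0.33 to 0.78 on the log2 scale and limma adjusted p from 0.0144 to 0.0487. Of the 41 members that did not pass, 36 had an estimate above 0 and 5 below 0. The interaction of position and follicle makes up the 1 residual degree of freedom, so a gene with unequal follicle differences in proximal and distal cells has a larger error. The counts depend on the filter and on the scaling of the libraries. With no filter on low values 0 members and 0 of 19309 genes passed. An unadjusted p below 0.05 was then reached by 17 of the 67 genes matched by name, beside 6204 of the 19309. Under median-ratio scaling 59 members rose and 0 fell, beside 2169 and 1896 of all genes, and under a common FPKM sum 15 rose and 1 fell, beside 1095 and 4390 of all genes.

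RPLP0 had the largest estimate, 0.78 (SE 0.1001, limma adjusted p = 0.0144), on the levels given above, with 1.69-fold more in F1 proximal than F5 proximal cells (1.66 to 1.72) and 1.74-fold more in F1 distal than F5 distal cells (1.71 to 1.77). RPS26 (ENSGALG00000027807, on an unplaced scaffold), a small subunit protein at the exit of the mRNA channel, had 868 FPKM in F1 proximal and 1029.8 FPKM in F1 distal cells, against 527 FPKM in F5 proximal and 627 FPKM in F5 distal cells. It rose by 0.72 (SE 0.0912, limma adjusted p = 0.0144), with 1.65-fold (1.61 to 1.69) in proximal and 1.64-fold (1.60 to 1.68) in distal cells. The follicle difference of RPS26 and RPLP0 was thus nearly equal at both positions, and the F1 and F5 values did not overlap. RPL27A (ENSGALG00000005948, chromosome 5, 9173636 to 9176702) had 789 and 907 FPKM in F1 proximal and F1 distal cells, against 485 and 640.2 FPKM in F5 proximal and F5 distal cells, an estimate of 0.60 (limma adjusted p = 0.0207). RPL6 (ENSGALG00000004818, chromosome 15, 6377025 to 6380366) had 818 and 877 FPKM in F1 proximal and F1 distal cells, against 484 and 652 FPKM in F5 proximal and F5 distal cells, an estimate of 0.59 (limma adjusted p = 0.0282). RPL38 had 585 and 733 FPKM in F1 proximal and F1 distal cells, against 406 and 468 FPKM in F5 proximal and F5 distal cells, an estimate of 0.59 (limma adjusted p = 0.0185). In each of these 5 members both F1 values stood above both F5 values.

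Next came RPS21 (estimate 0.50), RPL39, a small protein of the exit tunnel (0.48), RPL13 (0.48) and RPS25, which viral internal ribosome entry sites need (0.47). RPL27 (0.46), RPL36 (0.45), RPS17L (0.45) and RPS28 (0.44) followed. RPLP1 rose by 0.43 and RPLP2 by 0.34, so all 3 stalk proteins passed the test, although with a pseudocount of 0.1 FPKM RPLP1, RPL29 and RPS14 no longer did. RPL7 rose by 0.44, RPL15 by 0.43 and RPL29 by 0.43, while RPS14, a platform protein, stood at the edge of the threshold with 0.33 (limma adjusted p = 0.0487). RPS20 (ENSGALG00000014432, chromosome 2, 110901398 to 110902603), a protein of the head of the small subunit, had 953 and 924 FPKM in F1 proximal and F1 distal cells, against 667 and 751 FPKM in F5 proximal and F5 distal cells, and rose by 0.41. RPS29 and RPS23, also of the small subunit, rose by 0.40 and 0.38. RPL8 and RPS10 had estimates as high, 0.42 and 0.43, but their limma adjusted p were 0.0524 and 0.0793.

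**Figure D5:**
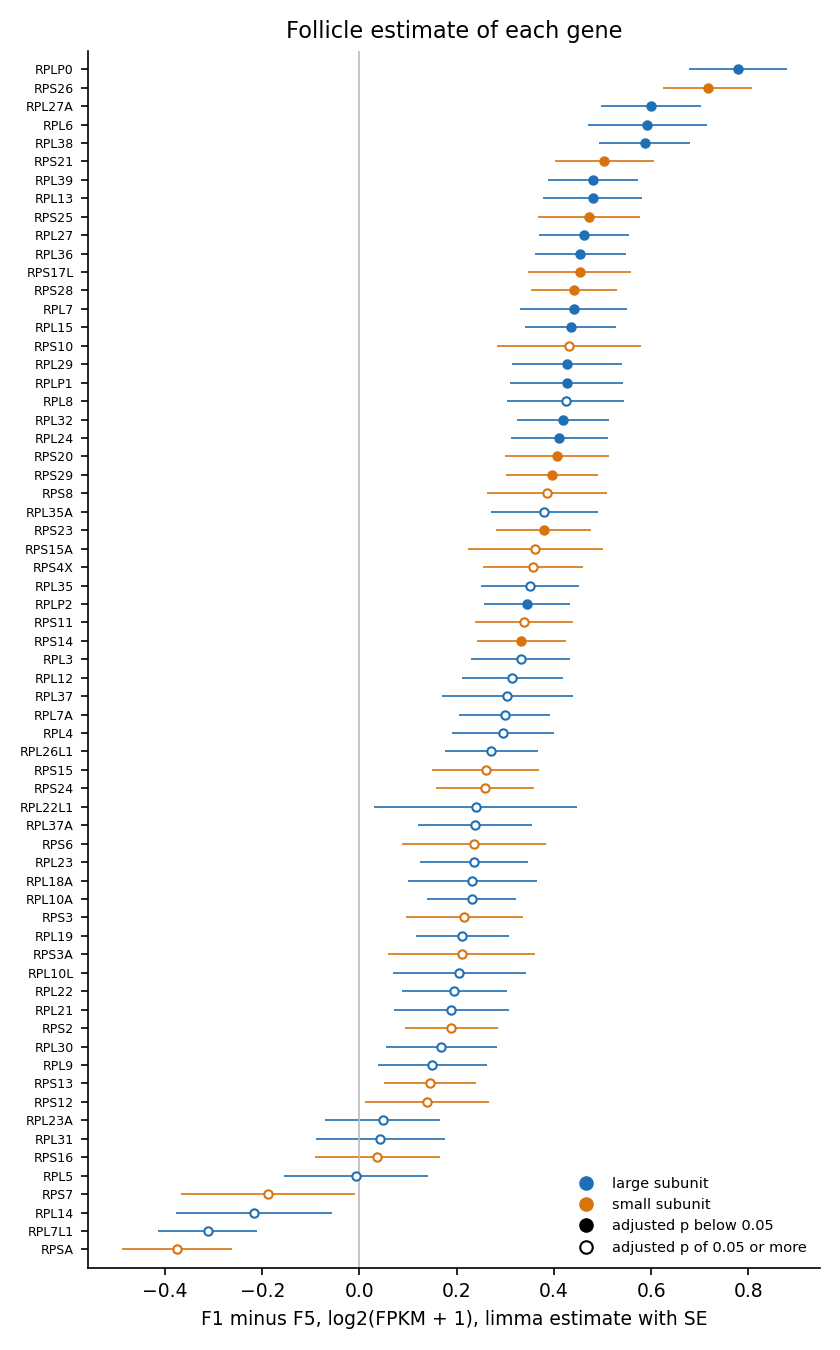
Estimate of F1 minus F5 on log2(FPKM + 1) for each of the 65 genes from the limma fit over 4 libraries, with its standard error, sorted from high to low (filled points pass an adjusted p of 0.05). The estimates run from 0.78 for RPLP0 to -0.38 for RPSA, and all 24 filled points lie right of 0.

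Large and small subunit genes had nearly the same median difference in every pair of libraries. The median difference of the large subunit was -0.13 in F1 proximal minus F1 distal cells and that of the small subunit -0.11, and in F5 they were -0.37 and -0.35. Between follicles the large subunit had a median of 0.43 in proximal and 0.22 in distal cells, and the small subunit 0.45 and 0.20. The large minus small subunit median was -0.02 for proximal minus distal in each follicle, -0.02 for F1 proximal minus F5 proximal and 0.02 for F1 distal minus F5 distal. Without the paralogs named with L, the proximal follicle gap turned to 0.0035 and the distal one moved to 0.06. Summed reads are another measure of the subunits, in which genes with many reads weigh more. The ratio of large to small subunit reads was 1.51 in F1 proximal (1.50 to 1.52), 1.60 in F1 distal (1.59 to 1.61), 1.45 in F5 proximal (1.44 to 1.46) and 1.47 in F5 distal cells (1.46 to 1.48). In F1 distal cells, where that ratio was highest, RPLP0 alone gave 37955 of 292541 large subunit reads. The large subunit share in F1 proximal cells was 0.883 times that in F1 distal cells (0.878 to 0.887) and the small subunit share 0.935 times (0.929 to 0.941), while in F5 the same folds were 0.774 (0.770 to 0.779) and 0.787 (0.782 to 0.792).

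A few core members stood apart from the rest between follicles. RPSA (ENSGALG00000011951, chromosome 2, 44935746 to 44940493), a small subunit protein also known as a laminin receptor, had 595 FPKM in F1 proximal and 581 FPKM in F1 distal cells, against 704 FPKM in F5 proximal and 828 FPKM in F5 distal cells. Both F1 values lay below both F5 values, by 1.18-fold between the proximal (1.15 to 1.21) and 1.43-fold between the distal libraries (1.39 to 1.46), with an estimate of -0.38 (SE 0.113, limma adjusted p = 0.0592), which under median-ratio scaling turned to 0.01. RPS7 (ENSGALG00000016392, chromosome 3, 93306593 to 93314000), which binds the p53 regulator MDM2 in mammals, had 278 and 261 FPKM in F1 proximal and F1 distal cells and 256 and 369.7 FPKM in F5 proximal and F5 distal cells. RPL14 (ENSGALG00000011523, chromosome 2, 41761657 to 41764799) had 432 and 384 FPKM in F1 proximal and F1 distal cells and 417 and 537 FPKM in F5 proximal and F5 distal cells. For both genes F5 distal cells stood out as high on the FPKM scale, and the other 3 libraries lay close together. Under median-ratio scaling F1 distal minus F5 distal was -0.03 for RPS7 and -0.01 for RPL14. F5 proximal minus F5 distal was then -0.65 for RPS7 and -0.48 for RPL14. RPL5 (ENSGALG00000005922, chromosome 8, 12994887 to 13001198), which with RPL11 and the 5S RNA also binds MDM2, had 379.6, 369.5, 324 and 438 FPKM in F1 proximal, F1 distal, F5 proximal and F5 distal cells. Its limma estimate between follicles was -0.01 (SE 0.148, adjusted p = 0.971), and under median-ratio scaling 0.38.

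The members whose names mark them as paralogs did not share a direction. RPL7L1 (ENSGALG00000011974, chromosome 4, 53956192 to 53959857) had 75.0 FPKM in F1 proximal and 59.5 FPKM in F1 distal cells, and 87.5 FPKM in F5 proximal and 79.1 FPKM in F5 distal cells. It was the only member higher near the disc in both follicles, 1.26-fold in F1 (1.18 to 1.36) and 1.11-fold in F5 (1.04 to 1.18). Under median-ratio scaling RPL7L1 had position differences of only 0.06 in F1 and 0.03 in F5 on the log2 scale, against 0.33 and 0.14 on the FPKM scale. Its core partner RPL7 (ENSGALG00000015637, chromosome 2, 117431264 to 117437199) had 480.4 and 587 FPKM in F1 proximal and F1 distal cells and 323 and 473 FPKM in F5 proximal and F5 distal cells. The ratio of RPL7L1 to RPL7 was thus 0.156 in F1 proximal, 0.101 in F1 distal, 0.271 in F5 proximal and 0.167 in F5 distal cells. It was highest in F5 proximal cells, where RPL7, its denominator, was lowest. RPL22L1 (ENSGALG00000009312, chromosome 9, 19191688 to 19193717), whose level rises in mice that lack Rpl22, had 80.7 and 72.5 FPKM in F1 proximal and F1 distal cells and 52.4 and 79.7 FPKM in F5 proximal and F5 distal cells. With 479 to 798 reads a library it was the most thinly read member, and its ratio to RPL22 (485, 508, 389 and 483 FPKM in F1 proximal, F1 distal, F5 proximal and F5 distal cells) stayed between 0.135 and 0.166. RPL26L1 (511, 603, 403 and 525 FPKM), RPS17L and RPL10L stood at the level of core genes. The sources used here do not say how reads shared with near-identical copies were counted, so values of members with such copies are uncertain.

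Other genes of the translation machinery were taken from 5 lists. Of 8 elongation and release factors found, EEF1B2, an exchange factor of elongation factor 1, rose in F1 and 2 fell (ABCE1 and EEF2K), while under median-ratio scaling 4 rose and EEF2K alone fell. EEF1B2 had 1003 and 1117 FPKM in F1 proximal and F1 distal cells, against 633 and 775 FPKM in F5 proximal and F5 distal cells, an estimate of 0.59 (limma adjusted p = 0.0194). Of 32 initiation factors 2 rose, EIF3I and EIF3K of the factor that binds the small subunit, and 7 fell, but under median-ratio scaling 12 rose and 0 fell, and the median estimate turned to 0.24, against -0.14 on the FPKM scale. Of 12 other genes whose mRNAs are known in mammals for a terminal pyrimidine run, 3 rose (EEF1B2, TPT1 and GNB2L1, the ribosome-bound scaffold RACK1) and 1 fell (NAP1L1), and under median-ratio scaling 10 rose and 0 fell. The median difference of those 12 was -0.12 in F1 proximal minus F1 distal cells, with 8 below 0, and -0.29 in F5 proximal minus F5 distal cells, with 10 below 0, and 0.20 and 0.12 for F1 minus F5 in proximal and distal cells. These medians lie on the same side of 0 as those of the ribosomal protein genes in each pair. Between follicles 10.4% and 35.8% of all genes rose and fell on the FPKM scale. Under median-ratio scaling 2169 of all 11203 genes rose and 1896 fell, which stands beside the counts of each list.

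Among 12 regulators of the translation of these mRNAs, LARP1, which binds the pyrimidine start, rose by 0.81 (limma adjusted p = 0.0167), with 24.3 and 32.7 FPKM in F1 proximal and F1 distal cells, against 12.3 and 19.8 FPKM in F5 proximal and F5 distal cells. RPTOR, the mTOR partner, TSC1, its inhibitor, and GABPA, a transcription factor, fell, and the 8 others did not pass the test. Under median-ratio scaling LARP1, MYC and EIF4EBP1 rose and GABPA alone fell, beside 2169 and 1896 of all 11203 genes. The limma adjusted p was then 0.333 for RPTOR and 0.0842 for TSC1. The 58 mitochondrial ribosomal proteins, which build a separate ribosome, had a median of 0.20 in F1 proximal minus F1 distal cells and of 0.07 in F5 proximal minus F5 distal cells, with 47 and 41 above 0. Between follicles 6 of them rose and 12 fell, where 10.4% and 35.8% of all genes did. Under median-ratio scaling 13 of them rose and 7 fell, beside 2169 and 1896 of all 11203 genes. Their medians were -0.14 in proximal and -0.21 in distal cells. On the FPKM scale they thus lay on the opposite side of 0 from the cytosolic set in all 4 pairs, but under median-ratio scaling their median estimate turned to 0.22 for follicle and -0.04 for position, against 0.72 and -0.45 for the cytosolic set.

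Markers of other cells varied with position and follicle, and are given beside the results above. Oocyte markers (6 of 10 found, BMP15, DAZL and ZP2 among them) summed to 17.7 FPKM in F1 proximal, 0.368 FPKM in F1 distal, 43.9 in F5 proximal and 3.61 in F5 distal cells. F5 proximal cells, with the most oocyte markers, had the lowest ribosomal protein share. The order did not hold between follicles. F1 proximal cells had more oocyte markers than F5 distal cells and also the higher ribosomal protein share, 3.08% against 2.91%. Endothelial markers (8 of 8 found) summed to 174, 158, 98.5 and 61.4 FPKM in F1 proximal, F1 distal, F5 proximal and F5 distal cells, nearly all from CLDN5 and EGFL7, while KDR, TEK, CDH5 and VWF stayed under 1 FPKM. Theca and stroma markers (8 of 10 found, LUM at 0 throughout) summed to 12.5, 7.55, 15.0 and 9.54 FPKM in that order. Leukocyte markers (5 of 8 found, SPI1 at 0) and erythroid markers (5 of 10 found, HBE at 0) summed to between 0.0711 and 1.67 FPKM in every library. Their part in the differences of the ribosomal protein genes was not tested.

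In the authors' deposited table of log2 fold changes, proximal over distal, 64 of 65 members were below 0 in F1, with a median of -0.36, and 64 of 65 in F5, with a median of -0.45. All genes in the authors' deposited table had medians of -0.01 in F1 and -0.02 in F5. For these members the values of the authors' deposited table differed from the log2 ratio of the FPKM by a constant, -0.237 in F1 and -0.0928 in F5, so the order of the members is the same in both. The single member above 0 in the authors' deposited table was RPL7L1 in both follicles.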

How the data were processed

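RNA was sequenced from 4 libraries of chicken granulosa cells, 1 for each combination of position and follicle, and groups were taken from the labels. The submitters' processing notes list TopHat2 2.0.12 and HTSeq 0.6.1. No genome build is named in the sources used here, and coordinates stand as the authors' files give them. The deposited tables held FPKM computed by the authors, a gene length column that is not the length behind the FPKM, and, per the file headers, the authors' log2 fold changes.

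Rows without a gene (2 of 19311) were left out. Whole reads, library totals and lengths were recovered from the steps of low FPKM values. Reads came out whole for 16894 of 16894 genes above 0 (tolerance 1e-06) and summed to 97.3% to 97.9% of the totals. The recovery takes the smallest length that gives whole reads in all 4 libraries. A factor shared by the true length and all 4 read counts is lost, which whole values cannot show. Reads, shares and lengths may therefore be too low for some genes, and the subunit read ratios may be off. Differences used log2(FPKM + 1), which understates the change of low genes, on the 11203 genes whose mean reached 1 FPKM. Folds are FPKM ratios with 95% exact (Clopper-Pearson) intervals from recovered reads. The fits used limma 3.58.1 in R 4.3.3, with a mean-variance trend, position and follicle as terms, 1 residual degree of freedom and two-sided Benjamini-Hochberg adjustment over all genes kept. A size rule of 2-fold described pairs of libraries, which have no test. The scripts for recovery and fitting were tested on simulated data. Alternatives were pseudocounts of 5 and 0.1, no filter, a mean of at least 5 FPKM, median-ratio scaling, a common FPKM sum and voom weights on recovered reads.

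The members and lists were chosen with earlier results of these data known. Named members are the highest and lowest in mean level and in each pair of libraries, the paralogs with their partners, RPSA, the stalk proteins, RPL5, RPS6 and RPS3; RPL31, RPL23A, RPS12 and others named in counts were added after their values were seen. A RefSeq table (assembly GRCg7b), used for names alone, held 64 of the 65 names, 63 of them on the same chromosome.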

Additional observations from a re-analysis of the deposited data

Results flagged for a closer look

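Some members lay on opposite sides of 0 in the same comparison made in another follicle or position, and none of these differences was tested, since each side is 1 pair of libraries. For position, proximal lay above distal in F1 and below it in F5 for RPS7 (0.09 and -0.53 on the log2 scale, a gap of 0.62), RPL14 (0.17 and -0.36, a gap of 0.53) and RPS3A (0.06 and -0.42, a gap of 0.47), and the counting intervals of these folds did not hold 1. Under median-ratio scaling all 3 lay below 0 in both follicles, at -0.19 and -0.65 for RPS7, -0.11 and -0.48 for RPL14, and -0.22 and -0.53 for RPS3A.

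For follicle, F1 lay above F5 in proximal cells and below it in distal cells for RPS7 (0.12 and -0.50, a gap of 0.62), RPL5 (0.23 and -0.24, a gap of 0.47), RPL31 (0.24 and -0.16, a gap of 0.40), RPS16 (0.22 and -0.15, a gap of 0.37) and RPL23A (0.20 and -0.11, a gap of 0.31). Under median-ratio scaling RPL5, RPL31, RPS16 and RPL23A lay above 0 at both positions, while RPS7 had 0.43 in proximal and -0.03 in distal cells. RPS7 had 278 and 261 FPKM in F1 proximal and F1 distal cells and 256 and 369.7 FPKM in F5 proximal and F5 distal cells. On the FPKM scale F5 distal was thus the library that stood apart. Under median-ratio scaling its F1 distal and F5 distal values lay close, while F5 proximal minus F5 distal was -0.65.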

How the results depend on the processing

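No paired analysis was possible because the libraries carry no replicate numbers; the position fit has follicle as a term and so compares positions within follicles. Leaving out a library would leave the fits no residual degree of freedom. The medians of the 65 genes kept their sign under every alternative run. They moved with the scaling, to -0.40 in F1 proximal minus F1 distal, -0.48 in F5 proximal minus F5 distal, 0.74 in F1 minus F5 proximal and 0.67 in F1 minus F5 distal cells under median-ratio scaling, and to -0.0738, -0.35, 0.40 and 0.145 under a common FPKM sum; relative to the median of all genes they were -0.36, -0.44, 0.73 and 0.67, and -0.32, -0.42, 0.70 and 0.60. The count of members that rose in F1, 24 by limma, was 0 with no filter, where 0 of 19309 genes passed. There 17 of the 67 genes matched by name had an unadjusted p below 0.05, beside 6204 of the 19309. The count that rose was 59 under median-ratio scaling and 15 under a common FPKM sum. The cause was not tested. Pseudocounts gave 30 (5 FPKM) and 21 (0.1 FPKM), a mean of at least 5 FPKM gave 25 and voom 24, of which 23 were shared. Members that fell numbered 1 at a pseudocount of 5 and 1 under a common FPKM sum, RPSA in both. The position fit called 0 members in every alternative, though 154 genes rose and 5 fell at a pseudocount of 5 and 51 rose under a common FPKM sum. Follicle estimates that turned under median-ratio scaling were those of RPL14 (0.17), RPL5 (0.38), RPL7L1 (0.073), RPS7 (0.20) and RPSA (0.0138), and under a common FPKM sum that of RPS16 (-0.00509). Under a common FPKM sum 6 members turned sign in F1 proximal minus F1 distal and 6 in F1 distal minus F5 distal cells. Without the paralogs, the large minus small subunit median was -0.0372 and -0.00931 between positions in F1 and F5, 0.0035 in proximal (turned from -0.02) and 0.0648 in distal cells between follicles. Without ZP3 reads the share was 3.47%, 4.03%, 2.31% and 2.97% in F1 proximal, F1 distal, F5 proximal and F5 distal cells. Members had 479 to 38440 reads a library, with the fewest for RPL22L1. Its fold of 1.11 for F1 proximal over F1 distal cells had a counting interval of 0.997 to 1.24.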
